A study of Mus musculus with 14 samples.

Results

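The genes described here are the chemokines and interleukins of the count table, chosen by symbol alone: Ccl, Cxcl or Il followed by a number (with at most 1 further letter after Ccl or Il), and Cx3cl1. This rule gave 72 of 28022 genes (0.257%), of which 25 are CC chemokines, 13 are CXC chemokines, 1 is the CX3C chemokine and 33 are interleukins. RNA was sequenced from 14 C57BL/6J mouse libraries, 2 for each of 7 conditions. MEFs (label Fib) are embryonic fibroblasts. 2D-iHs (label 2D-iHepSC) are a monolayer of induced hepatic stem cells, made from such fibroblasts with lentiviral Hnf4α and Oct4, which all 4 culture conditions therefore carry. In 2D-iHEs (label 2D-iHepSCiEC) these cells share the dish with induced endothelial cells (iECs). The iECs came from HF1, a human fibroblast line, through human ETV2, so their transcripts enter the table only where a human read aligned to a mouse gene. iHLOs (label 3D-iHA) are spheroids of the hepatic cells in a collagen and Matrigel hydrogel, and iHEAs (label 3D-iHEA) are the same spheroids in a gel that holds iECs. By the study's methods all 4 cultures were kept in 1 medium containing oncostatin M, a cytokine of the IL-6 family, which MEFs and livers were not. Adult livers came from 6-week-old male mice and fetal livers from mid-gestation embryos.

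Chemokines are small secreted proteins that bind G-protein-coupled receptors on leukocytes and other cells and direct their movement. Inflammatory chemokines such as Ccl2 and Cxcl1 are switched on by TNF, IL-1 and microbial products through NF-kB, whereas homeostatic ones such as Cxcl12 are made steadily by stromal cells. Interleukins are the wider set of secreted signals between leukocytes and tissue cells. Some (Il1a, Il18, Il33) are held inside epithelial or stromal cells as precursors, so their mRNA level is not their release. In the liver, bile duct epithelium, sinusoidal endothelium, Kupffer cells (the resident macrophages), stellate cells and hepatocytes each contribute part of this repertoire.

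Total counts ran from 20851489 to 35143325 per library. Levels are given as CPM, the count scaled to a common library total after TMM normalization, whose factors were 0.433 and 0.443 in the adult livers and 1.09 to 1.21 in the other libraries. A count of 3 was taken as the limit of detection, which is 0.0768 to 0.202 CPM. The labels do not say that the libraries of a condition came from separate cultures or animals, so the p-values measure the spread between libraries, which may be technical. In bulk RNA, fewer cells of a type and less RNA per cell cannot be told apart. In the 8 culture libraries Ptprc, the pan-leukocyte marker, had 0 to 3 counts, and the 6 Kupffer markers summed to at most 0.111 CPM there, against 1270 to 1346 CPM in adult liver. The 13 leukocyte markers summed to 26.6 to 33.2 CPM in the cultures, and not all of them were near 0. Cd68 had 514 to 826 counts, Lyz2 44 to 107, Cd3e 33 to 52 in 2D and 1 to 5 in 3D, and Laptm5 9 to 25 in 2D and 205 to 353 in 3D. The hepatocyte markers summed to 282 to 397 CPM in the cultures and to 557983 to 596790 CPM in adult liver, and Cyp2e1 and Serpina1a were at 0 in 3 of the 4 culture conditions. The libraries of iHEA and of fetal liver differed more from each other (chi-square per gene 11.5 and 13.4) than those of the other 5 conditions (3.05 to 3.67).

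Of the 72 members, 53 had more than 3 counts in at least 1 library, and 4 (Ccl21b, Ccl21c, Il17a and Il20) had none anywhere. The number above 3 counts in a library of the condition was 30 in MEFs, 31 in 2D-iHs, 30 in 2D-iHEs, 30 in iHLOs, 33 in iHEAs, 37 in adult liver and 41 in fetal liver. The classical lymphocyte interleukins Il2, Il3, Il5, Il13, Il21 and Il22 were among those at or under 3 counts in every library. So were Ccl1, Ccl26, Ccl27, Ccl27b, Cxcl3, Il12b, Il24, Il25 and Il31. A further 11 members (Ccl4, Ccl12, Ccl17, Ccl19, Ccl21a, Il9, Il10, Il17c, Il17f, Il19 and Il27) had at most 14 counts in any library and were called in no comparison. Near-identical gene copies make the Ccl21 and Ccl27 families uncertain, since reads can be split between them.

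Which member led differed by condition. Per kilobase of exon, Cxcl12 led in MEFs at 351 and 355 CPM per kb in the 2 libraries. Ccl2 led in the monolayers, at 53.3 and 54.0 CPM per kb without iECs and 59.3 and 62.3 with them, with Il33 next. Cxcl17 led in both 3D cultures, at 230 and 231 CPM per kb in iHLOs and 207 and 225 in iHEAs, followed by Cx3cl1 at 27.3 to 28.7. Ccl9 led in adult liver at 126 and 128 CPM per kb, ahead of Cxcl12 at 102 in both libraries, and Cxcl12 led in fetal liver at 16.9 and 17.0. The leading chemokine was thus a stromal one in MEFs, a monocyte attractant in the monolayers and a mucosal one in 3D.

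**Figure D1:**
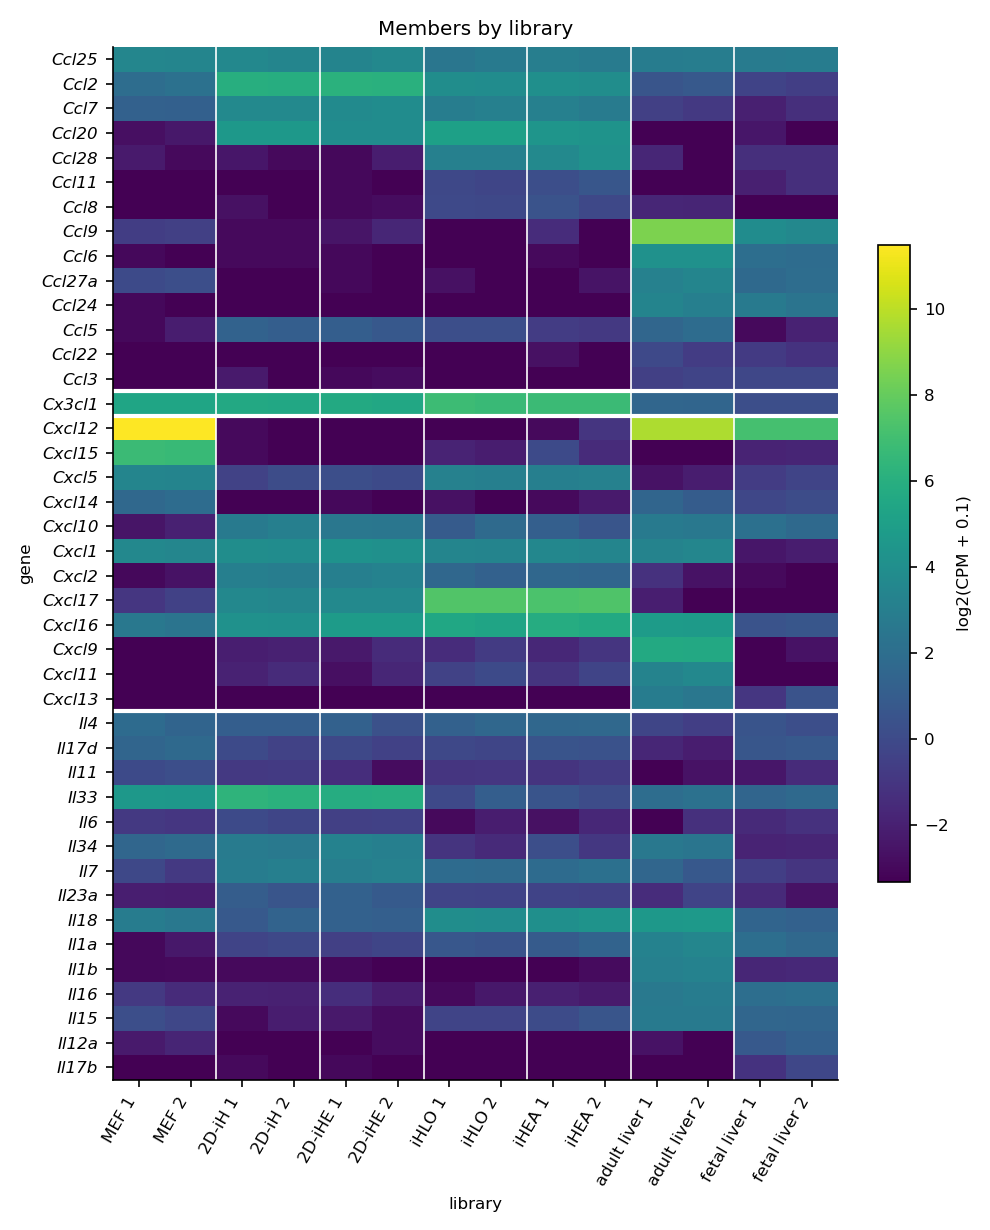
Level of the 42 members that reached a mean of 1 CPM in a condition or were called in a comparison (rows, grouped as CC, CX3C, CXC and interleukins) in each of the 14 libraries (columns, white lines between conditions), as log2(CPM + 0.1). Libraries of a condition look alike for most rows, Cxcl12 and Cxcl15 are bright in MEFs and dark in the 8 cultures, and Ccl9 and Cxcl9 are brightest in adult liver.

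The comparison of 2D-iHs with MEFs asks how the converted cells differ from their cells of origin. The medium differs between them too, so its part cannot be told apart. Cxcl12, the stromal ligand of Cxcr4, had 108173 and 89662 counts in the MEF libraries and 1 and 0 in 2D-iHs. Its pooled level was 196732-fold lower (95% counting interval 35309 to 7770540). Cxcl15, a lung-type neutrophil attractant, went from 4041 and 3176 counts to 1 and 0. Cxcl14, an epithelial and stromal chemokine, went from 117 and 117 counts to 0 and 0, at least 38.8-fold lower. Ccl27a went from 34 and 34 to 0 and 0, at least 11.3-fold lower. The fibroblast markers moved with them, from 29032 to 30330 summed CPM in MEFs to 5.23 to 5.81 in 2D-iHs, all 10 being called lower; their part in these losses was not tested.

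Ccl2, Ccl5, Ccl7, Ccl20, Cxcl2 and Cxcl10 differed in the opposite direction. Ccl2, which recruits monocytes through Ccr2, stood at 3.81 and 4.54 CPM in MEFs and at 61.5 and 60.7 in 2D-iHs (log2 fold change 3.88 ± 0.09 SE, adjusted p = 6.39e-17, edgeR). Its neighbour Ccl7 rose from 2.34 and 2.21 to 12.5 and 12.6 CPM (2.46 ± 0.15). Ccl20, the epithelial ligand of Ccr6, had 2 and 3 counts in MEFs and 845 and 760 in 2D-iHs, 323-fold higher (95% counting interval 138 to 996). The MEF and 2D-iH libraries did not overlap in these genes, and how often this holds among all genes was not counted. Cxcl2, a neutrophil attractant, had 1 and 2 counts in MEFs and 298 and 244 in 2D-iHs, 182-fold higher (61.8 to 884). Cxcl10, an interferon-inducible ligand of Cxcr3, rose from 0.0806 and 0.16 to 6.7 and 8.36 CPM (5.96 ± 0.40). Ccl5, a T cell attractant, rose from 0.0269 and 0.128 to 2.48 and 2.05 CPM (4.88 ± 0.48). In the fibroblasts Ccl5, Ccl20, Cxcl2 and Cxcl10 were near the detection limit, whereas Ccl2 (142 and 142 counts) and Ccl7 (87 and 69) were not. In 2D-iHs 7 of 8 hepatocyte, 4 of 7 endothelial and 6 of 13 leukocyte markers were called higher and 0 lower, some on few counts. Of 5 cholangiocyte markers 3 were higher and 2 lower, and of all genes 41.2% and 35.6%. The part of these markers in the gains was not tested.

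Among epithelial-type members, Cxcl17, a mucosal chemokine, rose from 0.403 and 0.639 CPM in MEFs to 12 and 10.9 in 2D-iHs (4.47 ± 0.17). Cxcl16, which is made as a transmembrane protein and binds Cxcr6, rose from 5.99 and 5.18 to 17.7 and 17.5 CPM (1.65 ± 0.10). Il33, a nuclear alarmin, was already high in MEFs at 23.4 and 23.1 CPM and reached 79.9 and 70.8 in 2D-iHs (1.69 ± 0.11). Its receptor gene Il1rl1 took the other course, with 9606 and 7510 counts in MEFs and 2 and 1 in 2D-iHs. Il7, a lymphocyte survival factor, rose by 3.60 ± 0.26 on the log2 scale, Il23a, a subunit of IL-23, by 3.66 ± 0.46, and Il34, a ligand of the receptor Csf1r, by 1.10 ± 0.21. Il15 and Il18 fell, Il15 by 3.63 ± 0.50 and Il18 by 1.69 ± 0.18, and Cxcl5, a neutrophil attractant, fell by 3.66 ± 0.19.

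In all, 17 members were called higher and 13 lower of the 43 tested, at an adjusted p under 0.05. Over the 17080 genes tested the shares were 41.2% higher and 35.6% lower, so the members did not stand out by their number. Of the 43, 16 had at least 10 counts in both libraries of each group, 6 only in 2D-iHs, 6 only in MEFs and 15 in neither. The call on Cx3cl1 was small (0.19 ± 0.06) and was lost without MEF 1 or 2D-iH 1 (adjusted p = 0.0611 and 0.0841) and under another scaling. Cxcl1 differed by 0.37 ± 0.10 and was not called by DESeq2. The calls of Il4 and Il16 as lower were lost without MEF 1 or either 2D-iH library, and that of Il11 without any 1 of the 4 libraries and by DESeq2. Scaling by DESeq2 size factors shifted the median gene of this comparison by -0.14 on the log2 scale. Il6 stood at 0.457 and 0.416 CPM in MEFs and at 0.918 and 0.746 in 2D-iHs and was not called (adjusted p = 0.0805), but it was called higher when the 4 libraries were fitted alone (0.0316).

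The promoters of Cxcl1, Cxcl2, Cxcl10 and Il6 are shown because they are the members tested in the cultures whose promoter holds a match to GGGANNTTCC, a form of the NF-kB consensus, and because the mRNA of all 4 was lower in 3D culture, as described further on. They are the 250 bases before and 50 after the RefSeq transcript start (build GRCm38.p6), written 5′ to 3′ on the gene's own strand, with the match in capitals.
Cxcl1, chr5:90890995-90891294, plus strand: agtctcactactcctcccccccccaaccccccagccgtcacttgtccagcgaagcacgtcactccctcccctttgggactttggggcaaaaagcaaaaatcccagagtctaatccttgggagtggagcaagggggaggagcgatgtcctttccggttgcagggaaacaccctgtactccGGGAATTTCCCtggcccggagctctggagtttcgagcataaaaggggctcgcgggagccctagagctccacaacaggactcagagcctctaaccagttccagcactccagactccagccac
Cxcl2, chr5:90903649-90903948, plus strand: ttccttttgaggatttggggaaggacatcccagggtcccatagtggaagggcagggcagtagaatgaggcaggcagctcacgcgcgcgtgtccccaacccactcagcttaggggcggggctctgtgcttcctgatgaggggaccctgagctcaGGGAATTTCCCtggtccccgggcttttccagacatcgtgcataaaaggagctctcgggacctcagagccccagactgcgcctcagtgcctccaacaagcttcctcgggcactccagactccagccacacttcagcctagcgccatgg
Cxcl10, chr5:92348840-92349139, minus strand: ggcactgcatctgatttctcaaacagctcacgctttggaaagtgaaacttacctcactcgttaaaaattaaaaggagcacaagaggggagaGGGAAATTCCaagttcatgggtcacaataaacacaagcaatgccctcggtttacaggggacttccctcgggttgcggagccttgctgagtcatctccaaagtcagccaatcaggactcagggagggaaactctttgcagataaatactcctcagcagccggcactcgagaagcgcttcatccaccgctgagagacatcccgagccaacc
Il6, chr5:30012864-30013163, plus strand: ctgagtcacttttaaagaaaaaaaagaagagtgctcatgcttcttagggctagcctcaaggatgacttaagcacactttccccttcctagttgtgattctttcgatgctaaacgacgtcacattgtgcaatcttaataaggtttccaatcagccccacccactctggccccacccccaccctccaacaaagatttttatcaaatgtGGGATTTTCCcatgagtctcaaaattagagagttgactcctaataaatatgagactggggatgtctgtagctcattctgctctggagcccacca
The match starts at position -71 from the transcript start in Cxcl1, -97 in Cxcl2, -159 in Cxcl10 and -44 in Il6. Cxcl1 and Cxcl2 carry the same 11 bases, which read as the motif on both strands and are marked once.

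A promoter of this length was given for 50 of the 72 members, and 7 of these (14%) held GGGANNTTCC on either strand: the 4 shown and Ccl1, Cxcl3 and Il16. Among all 27025 symbols with a promoter the share was 1.63%. Of the other 3, Ccl1 had at most 1 count in every library and Cxcl3 and Il16 stayed under 12 counts in each culture library. The interferon-type motif GAAANNGAAA was in 5 of the 50 (10%; all symbols 3.99%), namely Ccl19, Cxcl10, Cxcl14, Il19 and Il4. The AP-1 motif TGANTCA, which reads alike on both strands, was in 12 (24.0%; all symbols 8.97%), among them Ccl28, Cxcl9, Cxcl10, Il1a and Il6. Letters alone do not show that a factor was bound.

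The comparison of 3D gel with monolayer asks how the format of culture bears on these genes. Of 26 members tested, 12 were called higher and 12 lower in the 4 libraries of 3D culture than in the 4 of 2D culture. The same call was made for 38.7% of all 13409 tested genes in the higher and 37.2% in the lower direction, and the median log2 fold change was 0.44 for the members and 0.01 for all genes. Of the 26 members, 21 reached the filter's level in both groups, whereas Ccl28, Cxcl9, Cxcl11 and Il15 did so only in 3D and Il6 only in 2D, so that these 5 could hardly have been tested without differing. Il11 and Il17d were not called (0.39 ± 0.41 and 0.50 ± 0.24), though Il17d was called higher in a fit of all 14 libraries (adjusted p = 0.0246) and without iHLO 2 (0.0371).

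**Figure D2:**
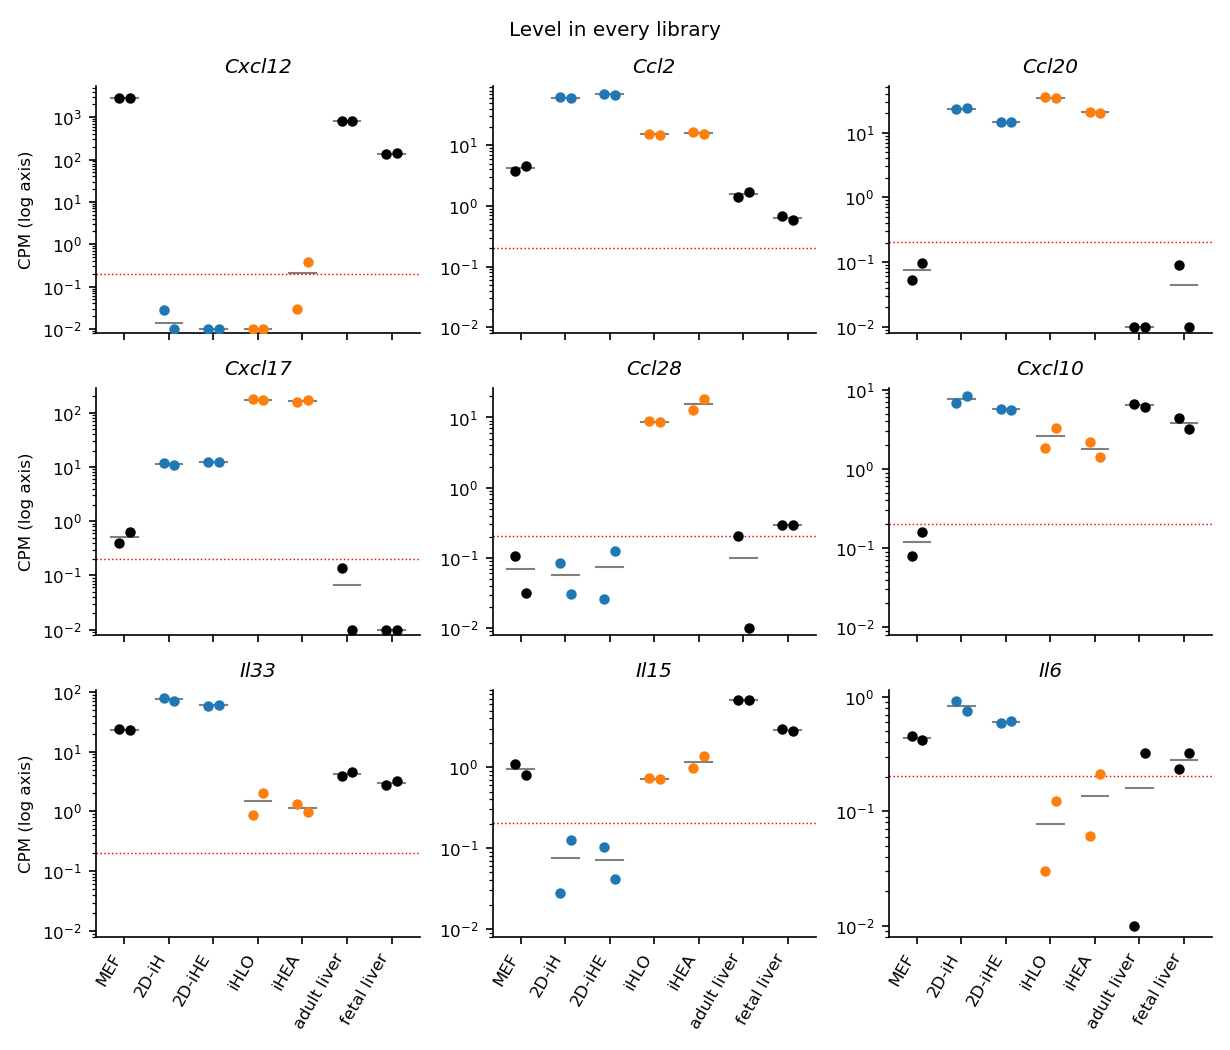
CPM on a log axis in each library (points, 2 per condition) of 9 members, with the mean of the condition as a grey bar. Blue marks the 2D and orange the 3D cultures, counts of 0 are drawn at 0.01, and the dotted line is the highest detection limit of any library (0.202 CPM). Cxcl17 and Ccl28 lie higher in all 4 3D libraries than in any 2D library, and Ccl2, Cxcl10, Il33 and Il6 lie lower.

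Among the members called higher were Cxcl17, Ccl28, Cx3cl1 and Cxcl16. Cxcl17 stood at 12, 10.9, 12.3 and 12.5 CPM in the 4 monolayer libraries and at 176, 175, 158 and 172 in the 4 gel libraries. That is a log2 fold change of 3.88 ± 0.06 (14.7-fold, adjusted p = 3.84e-12), and in 3D it was the most abundant member, where all members together summed to 451 to 466 CPM. Ccl28, a mucosal ligand of Ccr3 and Ccr10, was barely detected in the monolayers (1 to 3 counts a library), while the gel libraries gave 293, 279, 424 and 512 counts. Its pooled level was 195-fold higher in 3D (95% counting interval 98.7 to 453). Cx3cl1, or fractalkine, a membrane-anchored chemokine of endothelium and epithelium, stood at 46.4 to 50.4 CPM in 2D and at 107 to 113 in 3D (1.23 ± 0.04, adjusted p = 1.53e-10). Cxcl16 stood at 17.5 to 28.4 CPM in 2D and at 40.1 to 57.1 in 3D (1.13 ± 0.17, adjusted p = 0.000103). In none of these 4 genes did the 2D and 3D libraries overlap. How often this holds among all genes was not counted, here or for the genes below. Cell type markers moved with these genes. The endothelial markers summed to 407 to 485 CPM in 2D and 871 to 1354 in 3D, with 4 of 5 tested called higher (Tek 5.90, Vwf 4.82, Tie1 3.56 and Pecam1 2.14 on the log2 scale). The epithelial marker Epcam (4.37), the leukocyte marker Laptm5 (4.26) and the stromal marker Pdgfrb (4.87) were higher too. Of the whole lists, 1 of 5 tested leukocyte markers was higher and 3 were lower, of 6 fibroblast markers 2 and 2, and of 5 cholangiocyte markers 2 and 2. Their part in the changes of these members was not tested.

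Cxcl5 rose from 0.668 to 1.07 CPM in 2D to 8.24 to 9.05 in 3D (3.29 ± 0.14, adjusted p = 1.93e-09), which brought it back near the 10.4 and 10.6 CPM of the MEFs. Cxcl11, annotated as a polymorphic pseudogene in this genome build, went from 2 to 8 counts to 12 to 30 (2.05 ± 0.42). Ccl20 was called higher (0.56 ± 0.21, adjusted p = 0.0332), but its 2D range of 14.6 to 23.6 CPM overlapped its 3D range of 19.9 to 34.9, and the call was lost without either library of 2D-iHE or of iHLO. Cxcl9 was also called on few counts, 4 to 6 in 2D and 7 to 16 in 3D (1.17 ± 0.39). Like Cxcl11, it passed the filter through 3D alone. The call on Cxcl9 was lost without 2D-iHE 1 (adjusted p = 0.0557) or iHLO 2 (0.0609).

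Ccl2, Ccl5, Ccl7, Cxcl1, Cxcl2 and Cxcl10, which were higher in 2D-iHs than in MEFs, were lower in 3D, unlike Ccl20. Both comparisons use the 2D-iH libraries, so they are not independent. Ccl2 stood at 61.5, 60.7, 70.9 and 67.5 CPM in 2D and at 15.4, 14.9, 16.7 and 15.3 in 3D, 4.07-fold lower (log2 fold change -2.02 ± 0.06, adjusted p = 2.33e-10). Cxcl2 stood at 7.58 to 9.25 CPM in 2D and at 2.31 to 3.01 in 3D (-1.57 ± 0.11). Cxcl10 stood at 5.53 to 8.36 CPM in 2D and at 1.41 to 3.33 in 3D (-1.55 ± 0.23). Ccl5 (-1.34 ± 0.28), Ccl7 (-0.68 ± 0.09) and Cxcl1 (-0.58 ± 0.09) fell less, with groups that did not overlap. Ccl25, the thymic and intestinal ligand of Ccr9, fell by 0.67 ± 0.11, but its exons overlap those of Elavl1 on the opposite strand, and with no strand setting given for the counting its reads cannot be told from those of that gene. The same holds, here and in every comparison, for Cxcl10 with Art3, Cxcl16 with Zmynd15, Cxcl11 with Gm2673, Ccl27a with Il11ra1 and Il1a with Gm14023. It also holds for Il1b with Il1bos, Il7 with Gm16685, Il16 with Stard5, Il17b with Gm38165 and Il34 with Gm15894. Even after the fall Ccl2 was above its MEF level.

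Among the 26 tested members Il33 had the lowest fold change. It stood at 79.9, 70.8, 58.3 and 61.2 CPM in the 2D libraries and at 0.876, 2.07, 1.32 and 0.990 in the 3D libraries, 49.6-fold lower (log2 fold change -5.63 ± 0.18, adjusted p = 2.21e-10). Il34 stood at 6.25 to 9.47 CPM in 2D and at 0.247 to 1.08 in 3D (-3.81 ± 0.31). Il6, the acute-phase cytokine, was low throughout, with 15 to 33 counts in 2D and 1 to 6 in 3D (-2.72 ± 0.40), and passed the filter through 2D alone. All 3 genes were lower in every 3D library than in any 2D library. Il23a (-1.42 ± 0.19) and Il7 (-1.12 ± 0.11) fell less.

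Other interleukins rose. Il18, a caspase-activated cytokine of epithelium and macrophages, stood at 1.67 to 2.49 CPM in 2D and at 14.6 to 19.8 in 3D (2.98 ± 0.14, adjusted p = 5.01e-09). Il15, which sustains natural killer and memory T cells, had 1 to 4 counts in 2D and 23 to 39 in 3D (3.60 ± 0.41), and passed the filter through 3D alone. Il1a rose by 1.36 ± 0.24 and Il4 by 0.61 ± 0.19, each with no overlap. The alarmins thus did not move as a group, since Il33 fell while Il1a and Il18 rose.

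**Figure D3:**
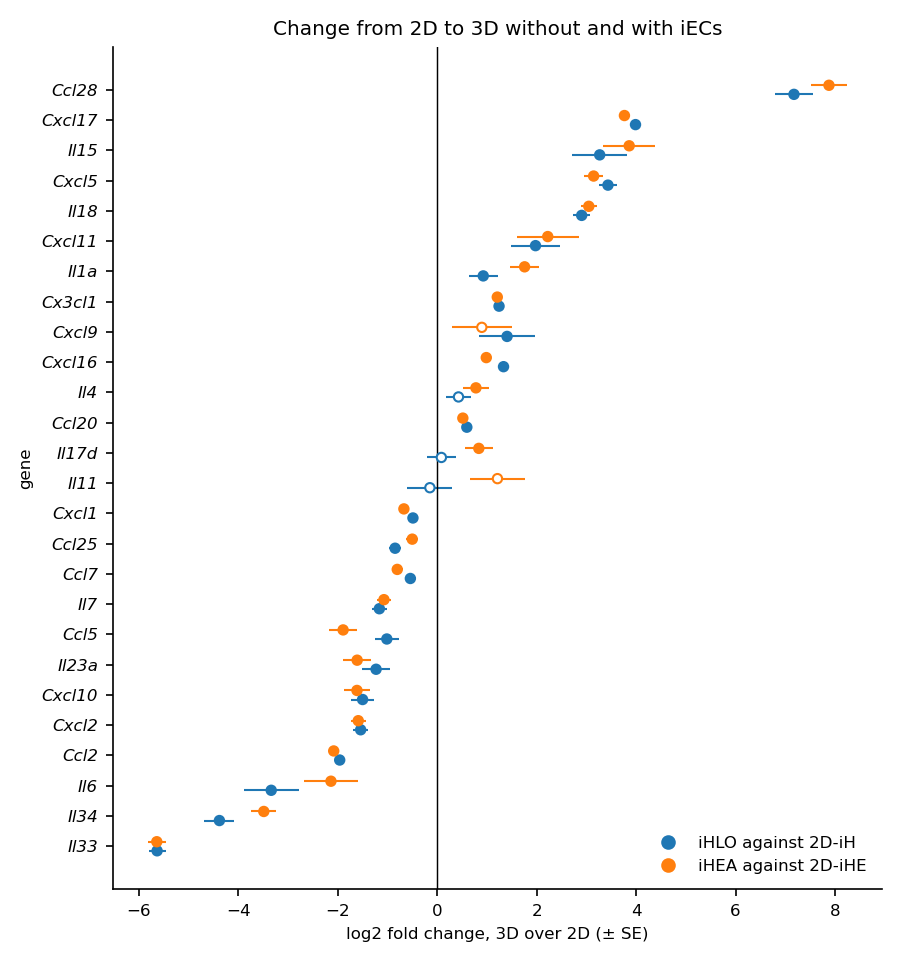
Log2 fold change from 2D to 3D (x axis, ± SE) of the 26 tested members (y axis), without iECs (blue, iHLO against 2D-iH) and with iECs (orange, iHEA against 2D-iHE). Filled points passed an adjusted p under 0.05. Points of a gene lie on the same side of 0 except for Il11, which was called in neither.

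The change is also given separately for the cultures without and with iECs, which share no library. Without iECs 11 members were called higher and 12 lower (36.9% and 35.3% of all genes), and with iECs 12 and 12 (36.0% and 34.9%). Il33 fell by 5.63 ± 0.17 without and 5.64 ± 0.18 with iECs, and Ccl2 by 1.96 ± 0.06 and 2.08 ± 0.06. Cxcl17 rose by 3.99 ± 0.07 and 3.76 ± 0.07, and Cx3cl1 by 1.24 ± 0.05 and 1.21 ± 0.05. Il4 and Il17d were called with iECs (0.78 ± 0.26 and 0.84 ± 0.29) and not without, and Cxcl9 was called without (1.40 ± 0.56) and not with them (0.90 ± 0.60). Without 2D-iHE 2 the calls on Il4 and Il17d were lost (log2 fold change 0.46 and 0.70). That on Il17d was also lost without iHEA 1 (0.80), with library number as a block (0.75) and by DESeq2. That on Cxcl9 was lost without iHLO 2 (0.92) or either 2D-iH library, by DESeq2 and with no filter. The call on Il1a without iECs was lost without 2D-iH 1 or iHLO 1, where the log2 fold change was 0.80 and 0.82. That on Cxcl11 with iECs was lost without 2D-iHE 1, where it was 1.33. The test of the difference, given with the co-culture results, called none of the members.

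Ccl8 and Ccl11 lay under the filter and were looked at after their counts were seen. Ccl11, or eotaxin, an eosinophil attractant, had 0, 0, 1 and 0 counts in monolayers and 27, 24, 36 and 42 in 3D, 133-fold higher (95% counting interval 23.5 to 5313). Ccl8 had 2, 0, 1 and 1 counts in 2D and 29, 27, 43 and 23 in 3D, 31.6-fold higher (12 to 118). Because they were picked for this difference, no test is given. Their levels, 0.74 to 1.49 CPM for Ccl11 in 3D, were still low.

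These genes sit beside Ccl2 and Ccl7. The cluster on chromosome 11 (82035571 to 82116799, GRCm38, GENCODE) holds Ccl2, Ccl7, Ccl11, Ccl12 and Ccl8 in that order. From 2D to 3D Ccl2 and Ccl7 fell while the counts of Ccl11 and Ccl8 were as given above, and Ccl12 had 0 counts in all 8 culture libraries. The cluster on chromosome 5 (90759360 to 90905938) holds Cxcl5, Cxcl3, Cxcl15, Cxcl1 and Cxcl2. In MEFs Cxcl15 led it at 109 and 102 CPM, in 2D-iHs Cxcl1 at 15.1 and 14.7, and in iHLOs Cxcl1 (10.5 and 10.1) and Cxcl5 (9.03 and 8.24) stood side by side. Here Cxcl5 rose while Cxcl1 and Cxcl2 fell.

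The Cxcr3 ligands Cxcl9, Cxcl10 and Cxcl11 are neighbours on chromosome 5 (92321347 to 92365485). In the cultures Cxcl10 was the most abundant of them, at 5.53 to 8.36 CPM in 2D, with Cxcl9 at 0.102 to 0.248 and Cxcl11 at 0.0512 to 0.249. In adult liver the order was another, with Cxcl9 at 52.0 and 49.1 CPM, Cxcl11 at 9.95 and 11.9 and Cxcl10 at 6.66 and 5.99. The cluster on chromosome 11 from 83525778 to 83664683 holds Ccl5, Ccl9, Ccl6, Ccl3 and Ccl4, of which Ccl5 alone was above 10 counts in a culture library. Of the 26 members in the main test, the 3 with the largest changes from 2D to 3D lie outside these clusters. Cxcl17 is on chromosome 7 (25400053 to 25412886), Ccl28 on chromosome 13 (119623819 to 119654359) and Il33 on chromosome 19 (29925114 to 29960718).

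**Figure D4:**
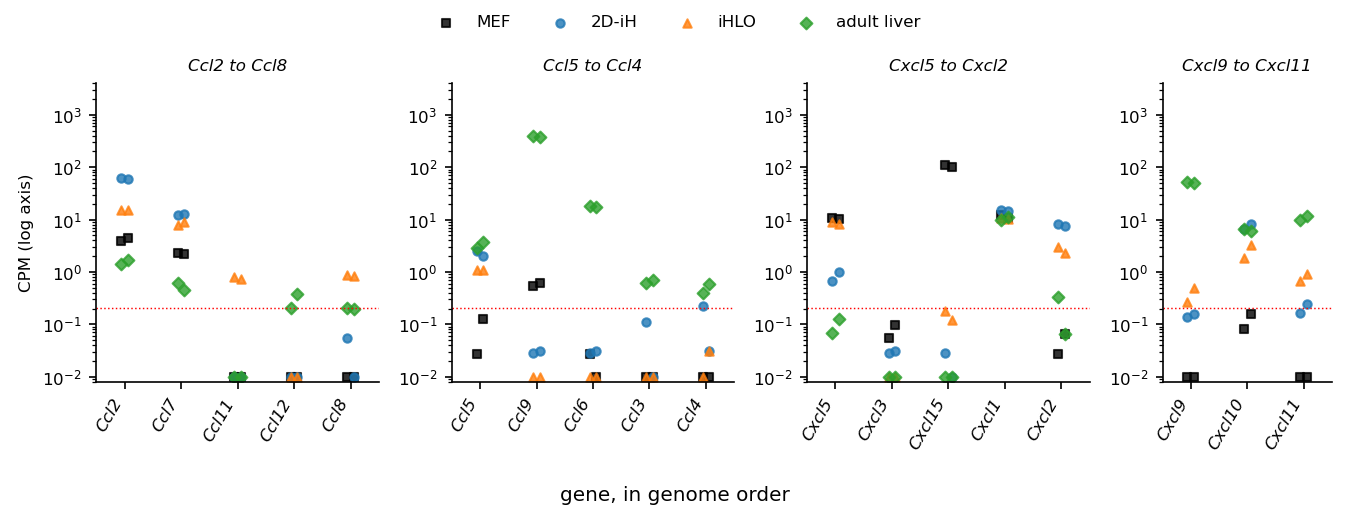
CPM on a log axis of the members of 4 gene clusters, each in genome order along the x axis, in the 2 libraries of MEF (black squares), 2D-iH (blue circles), iHLO (orange triangles) and adult liver (green diamonds). Counts of 0 are drawn at 0.01 and the dotted line is the highest detection limit of any library. In the first panel the iHLO points lie under those of 2D-iH for Ccl2 and Ccl7 and above them for Ccl11 and Ccl8.

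Few of these genes were called when iECs were added. In 3D, 2 members were called higher and 1 lower in iHEAs than in iHLOs of 26 tested (1.19% and 1.07% of all genes). An unadjusted p under 0.05 was found for 9 of the 26, and for 1702 of all 13409 genes. Ccl20 was lower, at 34.9 and 33.9 CPM in iHLOs and 21.1 and 19.9 in iHEAs (-0.74 ± 0.06, adjusted p = 0.000107). Cxcl16 was higher, at 45.4 and 40.1 CPM in iHLOs and 57.1 and 52.2 in iHEAs (0.36 ± 0.07, adjusted p = 0.0144). Ccl28 was higher, at 8.85 and 8.61 CPM in iHLOs and 12.8 and 18.1 in iHEAs (0.83 ± 0.17, adjusted p = 0.0245). The call on Ccl28 was lost without either iHLO library (adjusted p = 0.181 and 0.194) and that on Cxcl16 without iHLO 2 (0.177), while that on Ccl20 was kept.

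In 2D, 3 members were called higher and 1 lower in 2D-iHEs than in 2D-iHs (4.26% and 3.92% of all genes). Ccl20 was again the lower one, at 23.5 and 23.6 CPM without and 14.6 and 14.8 with iECs (-0.66 ± 0.07, adjusted p = 9.67e-05). Cxcl16 was again higher, at 17.7 and 17.5 CPM without and 28.4 and 28 with iECs (0.71 ± 0.08, adjusted p = 0.000133). The calls on Ccl2 (0.21 ± 0.05) and Cxcl1 (0.32 ± 0.08) were small and were lost without any 1 of the 4 libraries, with adjusted p from 0.115 to 0.209 for Ccl2 and from 0.0821 to 0.217 for Cxcl1. Il33 stood at 79.9 and 70.8 CPM without and 58.3 and 61.2 with iECs and was not called (-0.31 ± 0.10, adjusted p = 0.0933), though it was with no filter (0.000151).

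**Figure D5:**
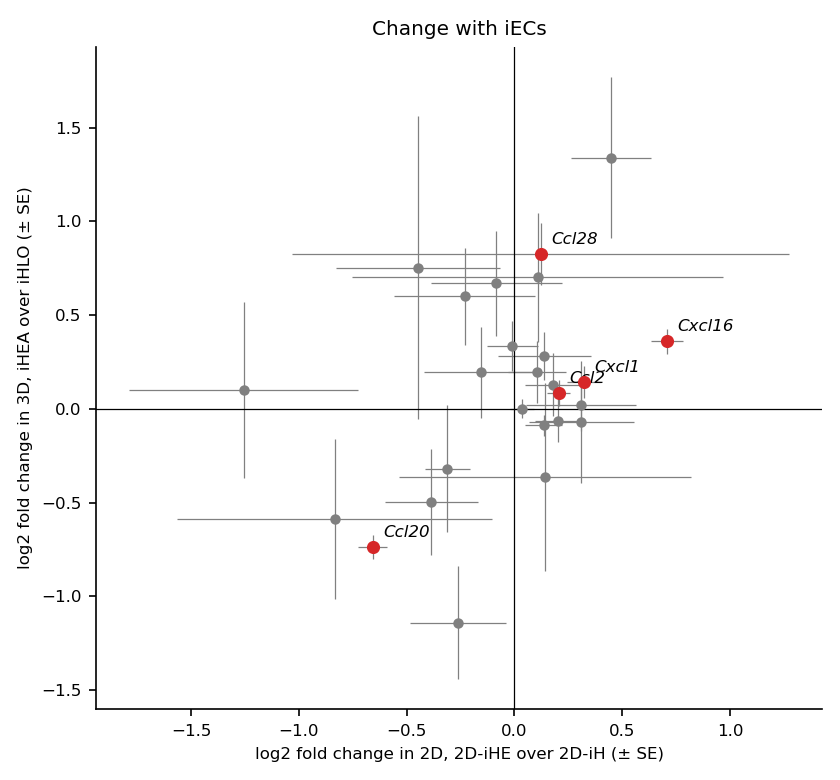
Log2 fold change with iECs in 2D (x axis) and in 3D (y axis) of the 26 tested members, each with its SE. Red points were called in at least 1 of the comparisons. Ccl20 lies to the lower left and Cxcl16 to the upper right, while Ccl2 and Cxcl1 lie near 0.

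So Ccl20 and Cxcl16 were the members called in both formats, and the formats share no library. Whether the effect of iECs differed between 3D and 2D was tested as an interaction. None of the 26 members was called by edgeR, against 3.14% of all genes in either direction. An unadjusted p under 0.05 was found for 3 of the 26, and for 2034 of all 13409 genes. The difference for Cxcl16 was -0.35 ± 0.10 (adjusted p = 0.0944), and it was called with no filter (0.0227) and without iHEA 1 (0.0213). Endothelial markers summed to 407 to 429 CPM in 2D-iHEs against 475 to 485 in 2D-iHs, and to 871 to 946 in iHEAs against 1218 to 1354 in iHLOs. Of 5 tested, 3 were called lower and 0 higher in each format, against 3.92% of all genes lower in 2D and 1.07% in 3D. Fibroblast markers summed to 12.3 to 14.3 CPM in 2D-iHEs and 5.23 to 5.81 in 2D-iHs. Of 6 tested, 1 was called higher in 2D and 1 lower in 3D. Cholangiocyte markers summed to 1187 to 1261 CPM in iHLOs and 1487 to 1488 in iHEAs, with 2 of 5 called higher, and to 1254 to 1333 in 2D-iHs and 1064 to 1208 in 2D-iHEs, with 1 of 5 called lower. In the interaction 3 of these 5 were called higher, against 1.52% of all genes. The part of these markers in the differences of Ccl20, Cxcl16 and Ccl28 was not tested. How many reads of the human iECs entered these values was not tested.

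Ccl5, Il34 and Cxcl17 did not pass the test between iHEAs and iHLOs. Ccl5 stood at 1.09 and 1.08 CPM in iHLOs and at 0.512 and 0.46 in iHEAs (-1.14 ± 0.30, adjusted p = 0.0766), and was called with no filter (0.0156). Il34 stood at 0.362 and 0.247 CPM in iHLOs and at 1.08 and 0.424 in iHEAs (1.34 ± 0.43, adjusted p = 0.163), and was called with no filter (0.00832) and without iHEA 2 (0.00452). Cxcl17 differed by -0.09 ± 0.06. The iHEA libraries differed from each other in 3 members of low count: Cxcl12 had 1 and 11 counts, Cxcl15 30 and 7, and Ccl9 9 and 0, against 0, at most 6, and 0 in the iHLO libraries.

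The receptors are listed apart from the ligands. Of 23 chemokine receptor genes 4 reached the filter in the cultures, among them Cxcr4 and Ackr4 through 3D alone, and from 2D to 3D 2 of the 4 were called higher and 1 lower, against 38.7% and 37.2% of all genes. Cxcr4, the receptor of Cxcl12, had 0 to 6 counts in a monolayer library and 48 to 94 in a gel library. Ccrl2, a non-signalling receptor that presents chemerin, had 51 to 109 counts in 2D and 507 to 835 in 3D (3.33 ± 0.16). Ackr3, a scavenger of Cxcl12, fell from 1574 to 2697 counts to 319 to 404 (-2.42 ± 0.08). Cxcl12 itself had at most 11 counts in any culture library, so the ligand of Cxcr4 and Ackr3 was near the detection limit there.

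Of 22 interleukin receptors tested from 2D to 3D, 16 were called higher and 2 lower, against 38.7% and 37.2% of all genes. Of these 22, Il1r2 and Il17rb reached the filter's level in 3D and not in 2D, and so could hardly have been tested without differing. Il17rb, part of the IL-25 receptor, had 1 to 7 counts in 2D and 61 to 279 in 3D (5.65 ± 0.66). Il17re, part of the IL-17C receptor, had 19 to 32 counts in 2D and 180 to 233 in 3D (3.29 ± 0.14). Il1r2, the IL-1 decoy receptor, had 0 or 1 count in 2D and 63, 80, 227 and 13 in 3D, and Il1r1, the signalling receptor, 18 to 29 in 2D and 91, 66, 423 and 52 in 3D (2.78 ± 0.64). Both IL-1 receptors were highest in iHEA 1. With iECs 2 of the 22 were higher and 3 lower in 3D, against 1.19% and 1.07% of all genes, and 4 were higher and 0 lower in 2D, against 4.26% and 3.92%. Il17rb had 279 and 185 counts in iHLOs and 71 and 61 in iHEAs (-1.71 ± 0.25, adjusted p = 0.00363), and Il20rb was lower by a log2 fold change of -0.71 ± 0.14. The receptor subunits of IL-18 were higher in both formats, Il18r1 by 0.66 ± 0.11 in 2D and 0.84 ± 0.10 in 3D, and Il18rap by 0.95 ± 0.14 and 1.00 ± 0.18.

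From MEFs to 2D-iHs 10 of 35 interleukin receptors were called higher and 17 lower, against 41.2% and 35.6% of all genes. Of the 35, 18 had at least 10 counts in both libraries of each group, 2 only in 2D-iHs, 7 only in MEFs and 8 in neither. Il1rl2, a subunit of the IL-36 receptor, went from 242 and 223 counts in MEFs to 0 and 0. Beside Il1rl1, Il1r1 went from 5745 and 4794 counts in MEFs to 24 and 24 in 2D-iHs (-7.76 ± 0.46). Il22ra1, an epithelial receptor subunit for IL-22, went from 0 and 2 counts to 220 and 204. Of 17 chemokine receptors tested there, 4 were higher and 5 lower, against 41.2% and 35.6% of all genes. Only 1 of the 17 had at least 10 counts in both libraries of each group, 2 had them only in 2D-iHs, 3 only in MEFs and 11 in neither. Cx3cr1, the receptor of fractalkine, went from 0 and 0 counts to 14 and 28 and back to at most 1 in 3D.

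Related ligands that the symbol rule leaves out moved in both directions from 2D to 3D, 4 of 11 higher and 5 lower, close to the 38.7% and 37.2% of all genes. Tslp and Ppbp passed the filter through 2D alone. Csf1, which shares the receptor of Il34, fell from 4450 to 7926 counts to 713 to 1119 (-2.54 ± 0.16), the same direction as Il34. Tslp, an epithelial cytokine, fell from 25 to 43 counts to 0 to 2 (-4.63 ± 0.42), as Il33 did. Il18bp, the soluble inhibitor of IL-18, rose with Il18, from 77 to 107 counts to 502 to 646 (2.72 ± 0.08). Pf4, a chemokine with an older name, rose from 6 to 13 counts to 131 to 203 (4.03 ± 0.25). From MEFs to 2D-iHs 5 of 16 were higher and 5 lower, against 41.2% and 35.6% of all genes. Of the 16, 8 had at least 10 counts in both libraries of each group, 2 only in 2D-iHs, 2 (Ppbp and Ctf1) only in MEFs and 4 in neither. There Il1rn, the IL-1 receptor antagonist, fell from 34748 and 27699 counts to 231 and 200 (-7.17 ± 0.12), and Ctf1, an IL-6 family cytokine, went from 458 and 378 to 0 and 1.

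Genes of the NF-kB pathway and its feedback targets split as well. From MEFs to 2D-iHs 16 of 22 were called higher and 1 lower, against 41.2% and 35.6% of all genes, led by Tnfaip3, a feedback inhibitor (3.91 ± 0.08), Ikbkg (2.28 ± 0.06), Nfkbiz (2.06 ± 0.09) and Nfkbia (2.06 ± 0.12). From 2D to 3D 7 of 22 were higher and 11 lower, against 38.7% and 37.2% of all genes. Vcam1, a leukocyte adhesion molecule and target, rose by 2.35 ± 0.08, whereas Ikbkg fell by 1.32 ± 0.04, Nfkbie by 1.01 ± 0.23 and Ikbke by 0.90 ± 0.12. The list's median log2 fold change was -0.09. Icam1, another adhesion target, was not called (0.14 ± 0.19, adjusted p = 0.522). With iECs in 2D 5 of the 22 were higher and 1 lower, against 4.26% and 3.92% of all genes, with 0.83 ± 0.14 for Nfkbie and 0.67 ± 0.15 for Icam1.

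Of 13 genes of the IL-6 family signal and STAT3 targets, 9 rose and 4 fell from 2D to 3D, against 38.7% and 37.2% of all genes, and Saa1 passed the filter through 3D alone. Saa1, an acute phase protein, had 1 to 21 counts in 2D and 182 to 383 in 3D (5.64 ± 0.47). Lcn2, an antimicrobial iron-binding protein, had 216 to 926 counts in 2D and 4247 to 7711 in 3D (3.66 ± 0.38). Cebpd, a transcription factor of the acute phase, rose by 2.11 ± 0.10, and Hp, or haptoglobin, had 30 to 55 counts in 2D and 249, 282, 2063 and 223 in 3D (4.11 ± 0.81), highest in iHEA 1. Il6 was lower in 3D, and all the cultures received oncostatin M. What part Il6 or oncostatin M had in the levels of these genes was not tested. With iECs in 2D 3 of the 13 were higher and 1 lower, against 4.26% and 3.92% of all genes. Lcn2 (1.80 ± 0.25) and the oncostatin M receptor gene Osmr (0.77 ± 0.12) were higher and Cebpd was lower (-0.32 ± 0.07). In the interaction 2 of the 13 were called, both lower, against 1.62% of all genes. The effect of iECs in 3D minus that in 2D was -1.61 ± 0.30 for Lcn2 (adjusted p = 0.0126) and -0.48 ± 0.10 for Socs3, a feedback inhibitor.

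The livers give the reference for the cultures. Against adult liver, 16 of 43 members were higher and 20 lower in iHLOs (41.6% and 38.2% of all genes), and size factors in place of TMM shifted the median gene by -0.22. Of the 43, 13 had at least 10 counts in both libraries of each group, 12 only in iHLOs, 11 only in adult liver and 7 in neither. Ccl9, a macrophage-derived CC chemokine, had 5793 and 5952 counts in adult liver and 0 and 0 in iHLOs, at least 4222-fold lower. Cxcl12 had 12397 and 12933 counts there, at least 9105-fold more than in iHLOs. Ccl6, Ccl24, Il1b and Cxcl13 were also at 0 in both iHLO libraries, with 547, 281, 275 and 197 counts summed over the 2 adult livers. Ccl22, a ligand of Ccr4, had 13 and 8 counts in adult liver and 0 and 0 in iHLOs, at least 7.55-fold lower. All 6 Kupffer, 13 leukocyte and 8 hepatocyte markers and 9 of 10 fibroblast markers were lower in iHLOs as well. Of 5 cholangiocyte markers 3 were higher and 2 lower, and of 7 endothelial markers 3 and 4, against 41.6% and 38.2% of all genes. The part of these markers in the differences was not tested.

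Among the members above adult liver were Cxcl17, Ccl20, Cx3cl1, Ccl2, Ccl7 and Cxcl16. Cxcl17 had 2 and 0 counts in adult liver and 5829 and 5671 in iHLOs, 2666-fold higher (95% counting interval 738 to 22018). Ccl20 was at 0 in both adult livers, so that iHLOs were at least 174-fold higher. Cx3cl1 stood at 2.89 and 2.77 CPM in adult liver and at 113 and 107 in iHLOs (5.28 ± 0.10, adjusted p = 1.37e-18). Ccl2 was 9.78-fold higher in iHLOs (3.29 ± 0.15), Ccl7 15.7-fold (3.97 ± 0.25) and Cxcl16 1.58-fold (0.66 ± 0.08). Il4, the type 2 cytokine, had 77 and 98 counts in iHLOs and 11 and 9 in adult liver (2.01 ± 0.38). Il18 was closer, at 24.1 and 25.3 CPM in adult liver and 15.3 and 14.6 in iHLOs (-0.73 ± 0.13). Il15, Il33 and Il34 were lower in iHLOs than in adult liver, with log2 fold changes of -3.24 ± 0.29, -1.53 ± 0.27 and -4.20 ± 0.33. The Cxcr3 ligands were lower too, with -7.03 ± 0.25 for Cxcl9, -3.77 ± 0.33 for Cxcl11 and -1.30 ± 0.26 for Cxcl10. Il1a, at 1.54 and 1.33 CPM in iHLOs and 9.48 and 11.2 in adult liver, was also lower (-2.85 ± 0.24). Ccl25 differed by -0.31 ± 0.14 and was not called (adjusted p = 0.053), but it was called lower by DESeq2 (0.00574), with size factors (0.00274) and under 3 other settings.

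Between the livers most called members were higher in the adult, 26 against 6 lower of 43 tested, while of all genes 37.2% were higher and 43.1% lower. The median log2 fold change was 1.28 for the members and -0.17 for all genes, and size factors shifted the median gene by 0.13. Here 18 of the 43 had at least 10 counts in both libraries of each liver, 6 only in the adult, 7 only in the fetus and 12 in neither. Cxcl9 had 773 and 762 counts in adult and 0 and 2 in fetal liver, 1632-fold higher (95% counting interval 451 to 13492), and Cxcl11 148 and 184 against 0 and 0, at least 118-fold higher. Cxcl1 stood at 9.62 and 11.1 CPM against 0.0886 and 0.13 (6.53 ± 0.24). Cxcl16 stood at 27.7 and 26.4 CPM against 1.27 and 1.46 (4.31 ± 0.13), and Ccl9 at 390 and 384 against 14.7 and 12.2 (4.84 ± 0.11). Each of these 5 genes was apart in the 2 livers, and how often this holds among all genes was not counted.

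Il1b (5.36 ± 0.34), Il34 (4.90 ± 0.36), Il18 (3.28 ± 0.16) and Cxcl12 (2.59 ± 0.10) were higher in adult liver too. Higher in fetal liver were Il12a, with 57 and 68 counts against 1 and 0, Il17d with 50 and 51 against 3 and 2, Il17b with 12 and 24 against 0 and 0, Cxcl5 with 18 and 22 against 1 and 2, Ccl11 with 5 and 9 against 0 and 0, and Cxcl15 with 6 and 6 against 0 and 0. The call on Cxcl15 was lost without either adult library. Ccl8 was called higher in the adult on 3 and 3 counts against 0 and 0, at the detection limit, so no fold is given. Il33, at 3.90 and 4.57 CPM in adult and 2.72 and 3.28 in fetal liver, was not called (0.51 ± 0.24, adjusted p = 0.0607), but it was called higher in the adult by DESeq2 (0.00424), with size factors (0.0255) and under 3 other settings. Also higher in adult liver were Ccl6, at 18.4 and 17.7 CPM in adult and 4.05 and 3.64 in fetal liver (2.23 ± 0.20), Cxcl13, the B cell attractant, with 109 and 88 against 14 and 39 counts (2.96 ± 0.43; not called by DESeq2), Cxcl14 (1.38 ± 0.36), Il15 (1.25 ± 0.25) and Cx3cl1 (1.36 ± 0.19). The Kupffer markers summed to 1270 to 1346 CPM in adult and 155 to 197 in fetal liver, and the leukocyte markers to 802 to 841 and 381 to 442. Of 13 leukocyte markers 8 were called higher and 3 lower, against 37.2% and 43.1% of all genes. Hepatocyte markers summed to 557983 to 596790 CPM in adult and 10792 to 13696 in fetal liver. Sums were lower in the adult for erythroid (604 to 652 against 31960 to 32787), fibroblast (458 to 492 against 1814 to 3015) and megakaryocyte markers (14.3 to 15.5 against 294 to 362). Whether the higher chemokine levels follow these cells was not tested. Of the NF-kB list 18 of 22 genes were higher and 2 lower in the adult, and of the IL-6 list 13 of 15 and 2, against 37.2% and 43.1% of all genes.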

How the data were processed

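RNA-seq was done on 14 libraries, 2 for each of 7 conditions. Gene counts per library were deposited by the authors. Their processing notes name Trimmomatic 0.36, HISAT2, Cufflinks, HTSeq and the mm10 build, and the strand setting is not given in the sources used here. The members and gene lists were chosen with earlier results of these data known. Culture comparisons tested the 13409 genes whose log2(count + 1) averaged 3 or more across the 8 culture libraries. Comparisons with MEFs and livers used genes with at least 10 counts in at least 2 of 14 libraries (17080). Both used edgeR 4.0.16 (TMM scaling, quasi-likelihood F test) in R 4.3.3, with Benjamini-Hochberg adjustment over all tested genes and a threshold of 0.05. The monolayer-to-gel comparison was fitted as 4 against 4 libraries, and the other culture comparisons in a fit of 4 conditions. SEs were derived from the fold change and F. Ratios against near-zero groups carry exact 95% intervals, or bounds at 3 counts per library, that cover counting error only. Named were members with a mean of at least 1 CPM in a condition or called in any of 9 comparisons, and, per list and comparison, genes among the 4 called ones with the largest fold changes, though not all of those. Ackr4, Icam1 from 2D to 3D and the cell type markers named lie outside this rule and were chosen after their values were seen. The fits were tested on simulated data. DESeq2 1.42.0, other filters and scalings, a replicate block and leaving out each library were the alternatives. A column of 1 iHEA library carries no unambiguous number. Positions come from GENCODE annotation of GRCm38 and promoters from RefSeq.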

Additional observations from a re-analysis of the deposited data

Results flagged for a closer look

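Within the 4 libraries of 3D culture and the 4 of 2D culture, 60 tests for a single library far from the other 3 were run, and 5 passed Dixon's critical value at 95%, where chance gives about 1 in 20. In all 5 the library was an iHEA one and was the highest. Ccl8 had 1.29 CPM in iHEA 1 and 0.813 to 0.876 in the others (gap over range 0.870). Ccl9 had 9 counts (0.271 CPM) in iHEA 1 and 0 in the others (gap over range 1). Cxcl15 had 30 counts (0.903 CPM) in iHEA 1 and 0.123 to 0.248 CPM in the others (0.841). Cxcl12 had 11 counts (0.389 CPM) in iHEA 2 and at most 0.0301 CPM in the others (0.923). Il7 had 4.39 CPM in iHEA 2 and 3.39 to 3.49 in the others (0.899). The iHEA libraries also differed more from each other across all genes than those of the other cultures. What set these libraries apart was not tested.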

How the results depend on the processing

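Of the called members, those keeping call and direction under every alternative in which they were tested (a stricter filter tests fewer of them) were 22 of 24 from 2D to 3D, 21 of 23 without and 21 of 24 with iECs, 1 of 3 for iHEA against iHLO (Ccl20), 2 of 4 for 2D-iHE against 2D-iH (Ccl20 and Cxcl16), 25 of 30 against MEFs, 31 of 36 against adult liver and 24 of 32 between livers. Called members in iHEA against iHLO numbered 3, and 5 with no filter. In 2D-iHE against 2D-iH they numbered 4, 6 with no filter and 2 by DESeq2. In the interaction they numbered 0, and 1 (Cxcl16) with no filter. Requiring a mean log2(count + 1) of 5 tests fewer genes and left 14 against MEFs, 16 against adult liver and 13 between livers. There Cx3cl1 against MEFs turned to -0.038. Without 1 library the members called ranged from 22 to 24 (3D against 2D), 21 to 22 and 22 to 24 (without and with iECs), 1 to 4 (iHEA against iHLO), 2 to 2 (2D-iHE against 2D-iH), 0 to 1 (interaction), 26 to 29 (MEF), 34 to 35 (adult liver) and 28 to 31 (livers). Between conditions other than iHEA, deviations by library number correlated at -0.0775 to 0.115. These values cannot tell whether libraries shared a batch. With the number as a replicate block, which drops the unnumbered iHEA library, 624 genes were called in iHEA against iHLO, 1953 in 2D-iHE against 2D-iH and 786 in the interaction. Without the block they were 303, 1096 and 421, and the same libraries unblocked, a fit added after seeing the data, gave 647, 2003 and 801, and 1 member in the interaction, which was not Cxcl16. With the block or its libraries unblocked, Il33 was also called in 2D-iHE against 2D-iH (adjusted p = 0.000208 and 0.00679) and Il34 in iHEA against iHLO (0.00284 and 0.00452). With no filter they were 881 in iHEA against iHLO and 901 in the interaction, and without 1 library 90 to 739, 257 to 429 and 129 to 963. The cause was not tested. With the block the calls on Il17d in iHEA against 2D-iHE and on Il16 against MEFs were lost. At the depth here a count of 3 is 0.0768 to 0.202 CPM, and 2 libraries a condition limit the tests.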
